A study of Rattus norvegicus with 6 samples.

Results

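Basement membranes are thin sheets of extracellular matrix on which epithelia, endothelia and muscle fibres rest. They hold a laminin network and a collagen IV network, which nidogens and perlecan link. Each laminin is a trimer of 1 alpha, 1 beta and 1 gamma chain. The collagen IV of most tissues is made of alpha1 and alpha2 chains. In kidney the basement membrane surrounds every tubule and forms part of the glomerular filter.

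The transcripts of 10 genes of this structure were examined: the collagen IV genes Col4a1 and Col4a2, the laminin chain genes Lama4, Lama5, Lamb1 and Lamc1, the nidogen genes Nid1 and Nid2, the perlecan gene Hspg2 and the collagen XVIII gene Col18a1. Members were all probe sets annotated to exactly 1 symbol on that list. There were 17 such probe sets of 31042, and they covered all 10 genes. A filter on dim signals was passed by 14 of the 17 probe sets, with at least 1 for each gene.

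The arrays were 1-colour Affymetrix rat arrays, 6 in all, and the values are MAS5 signals. RK3E is a rat kidney cell line immortalised with an adenovirus oncogene. GLI1 is a DNA-binding effector of Hedgehog signalling, and 4 arrays carried RNA of RK3E cells transformed by it. Single foci that grew after transfection of a GLI1 construct had been isolated and kept as lines. By the labels 1 of these arrays is clone I, 2 are replicates 1 and 2 of clone II, and 1 carries no clone name and is called the unnamed clone here. Whether that array is clone I, clone II or a further line is not stated. The other 2 arrays carried RNA of parental RK3E cells, and all cells were grown in medium with serum. The promoter that drives GLI1, and whether parental cells were mock transfected, are not given in the sources used here.

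Gli1 itself had a log2 signal of 12.20 ± 0.66 in GLI1 cells and 5.84 ± 0.94 in parental cells (SD, n = 4 and n = 2). The 2% trimmed mean signal was the same on all arrays (2500.7 to 2500.8). The 3'/5' signal ratio of GAPDH, which rises as RNA degrades, ran from 1.39 to 7.52 in GLI1 cells (highest in clone II replicate 1) and was 3.66 and 1.43 in parental replicates 1 and 2. The beta-actin 3'/5' ratio ran from 6.21 to 22.1 in GLI1 cells, again highest in clone II replicate 1. In parental replicates 1 and 2 it was 10.8 and 6.44. Precision is set by the small number of arrays. The labels call the replicates biological and do not say whether they were separate cultures. Each p-value reflects array-to-array spread alone, and the GLI1 arrays include clones I and II, so their spread includes differences between lines. In bulk RNA a lower transcript level per cell and fewer cells that express a gene cannot be told apart.

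Laminin beta1, laminin gamma1, laminin alpha4, nidogen-2 and perlecan transcripts were lower in GLI1 cells, by 2.1 to 3.7-fold. Transcripts of the collagen IV genes Col4a1 and Col4a2, and of laminin alpha5, nidogen-1 and collagen XVIII, did not pass the test. Of the 14 tested probe sets, 0 rose, 6 fell and 8 did not pass (limma, Benjamini-Hochberg adjusted p under 0.05 over all 18625 tested probe sets). Among all tested probe sets 5.84% rose and 7.25% fell (1087 and 1351). With each array centred on its median 1454 rose and 944 fell, and the member counts were again 0 and 6. The 4 GLI1 arrays lay below both parental arrays for 6 of the 14 probe sets, where 20.2% of all tested probe sets did so, and above both for 1, where the share of all was 19%. Taking the probe set of highest mean for each gene, 5 of the 10 genes fell, and the median log2 difference was -0.88, beside 0.07 over 10240 tested named genes.

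**Figure D1:**
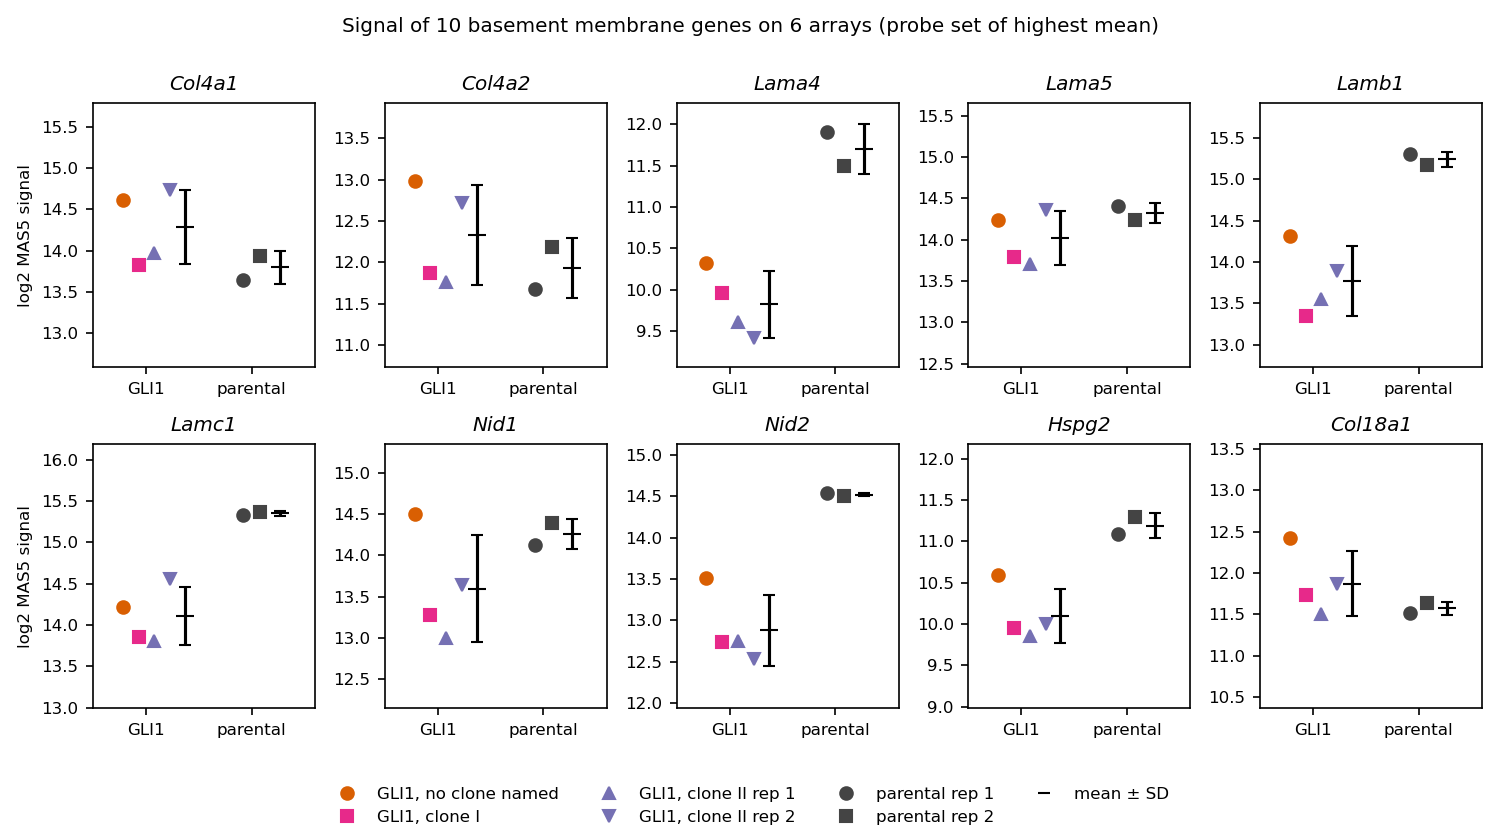
Log2 MAS5 signal of each gene (vertical axis, the same span of log2 units in every panel) on 4 GLI1 arrays and 2 parental arrays, with mean ± SD beside the points. For Lama4, Lamb1, Lamc1, Nid2 and Hspg2 every GLI1 array lies below both parental arrays, and for the other 5 genes the groups overlap.

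Laminin alpha chains carry the domains by which the trimer binds cell receptors. Lama4, whose chain is found in the laminins of vessels, muscle and fat, had a signal of 1276 (unnamed clone), 996 (clone I), 779 and 680.0 (clone II replicates 1 and 2), against 3852 and 2879 on parental replicates 1 and 2. All 4 GLI1 arrays were below the lower parental array. Lama4 fell 3.68-fold (log2 difference -1.88, SE 0.31, 95% interval -2.58 to -1.18, adjusted p = 0.00559, limma). Lama5, whose chain is the common alpha chain of mature epithelial and kidney basement membranes, had 19362 (unnamed clone), 14118 (clone I), 13351 and 21016 (clone II replicates 1 and 2), against 21721 and 19385 in parental cells. Clone II replicate 2 lay between the parental arrays and the other 3 GLI1 arrays lay below both, so the groups overlapped. The log2 difference of Lama5 was -0.30 (SE 0.22, 95% interval -0.80 to 0.19, adjusted p = 0.408).

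Lamb1 and Lamc1 encode the beta1 and gamma1 chains that most laminins share, with either alpha chain. Lamb1 signal was 20247 (unnamed clone), 10440.5 (clone I), 11968 and 15156 (clone II replicates 1 and 2), against 40338 and 36992 on the parental arrays. No GLI1 array came near the parental level, and the nearest was the unnamed clone. Lamb1 fell 2.76-fold (log2 difference -1.46, SE 0.25, adjusted p = 0.0072). Lamc1 had 19018 (unnamed clone), 14806 (clone I), 14325 and 24226 (clone II replicates 1 and 2), against 41264 and 42312 in parental cells. The Lamc1 groups did not overlap either, and it fell 2.36-fold (log2 difference -1.24, SE 0.23, adjusted p = 0.00882). A further probe set of Lamc1, dimmer than the first, gave 2666, 1611, 1207 and 3398 in GLI1 cells in the same order, against 6157 and 5972 in parental cells. It also fell, by 1.57 (SE 0.38, adjusted p = 0.0297).

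Nidogens are sulphated glycoproteins that bind the laminin gamma1 chain and collagen IV. Nid2 signal was 11629.6 (unnamed clone), 6852 (clone I), 6866 and 5934 (clone II replicates 1 and 2), against 23769 and 23308 in parental cells. Both parental arrays were higher than every GLI1 array. Nid2 fell 3.12-fold (log2 difference -1.64, SE 0.26, 95% interval -2.23 to -1.05, adjusted p = 0.0048), and it had the smallest adjusted p of the 10 genes. Nid1 had 23109.9 (unnamed clone), 9940.3 (clone I), 8201 and 12724 (clone II replicates 1 and 2), against 17926 and 21489 in parental cells. The unnamed clone was above both parental arrays and the other 3 GLI1 arrays were below them. The log2 difference of Nid1 was -0.66 (SE 0.36, 95% interval -1.47 to 0.16, adjusted p = 0.268). A dimmer probe set of Nid1 gave 2568, 1736, 1253 and 1374 in GLI1 cells in the same order, against 1850.3 and 2437 in parental cells, and its difference was -0.35 (SE 0.32, adjusted p = 0.517). Without the unnamed clone, the difference of Nid1 was -0.96 and passed (adjusted p = 0.0209).

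Perlecan and collagen XVIII are heparan sulphate proteoglycans of the basement membrane, and the end of the collagen XVIII chain is released as endostatin. Hspg2, the perlecan gene, had 1542 (unnamed clone), 991 (clone I), 929 and 1021 (clone II replicates 1 and 2), against 2173 and 2525 in parental cells. The groups were apart, by the narrowest margin of the genes that fell. Hspg2 fell 2.14-fold (log2 difference -1.09, SE 0.28, 95% interval -1.72 to -0.47, adjusted p = 0.033). Col18a1 had 5463 (unnamed clone), 3388 (clone I), 2891 and 3710 (clone II replicates 1 and 2), against 2929 and 3165 in parental cells. Clone II replicate 1 was below both parental arrays and the other 3 GLI1 arrays were above both, and the log2 difference of 0.30 did not pass (SE 0.26, 95% interval -0.29 to 0.90, adjusted p = 0.5). The dimmer probe set of Col18a1 gave 2193, 1247, 396 and 1014 in GLI1 cells in the same order, against 1166 and 1976 in parental cells. Its difference had the opposite sign (-0.57, SE 0.58, adjusted p = 0.572) and the groups again overlapped.

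**Figure D2:**
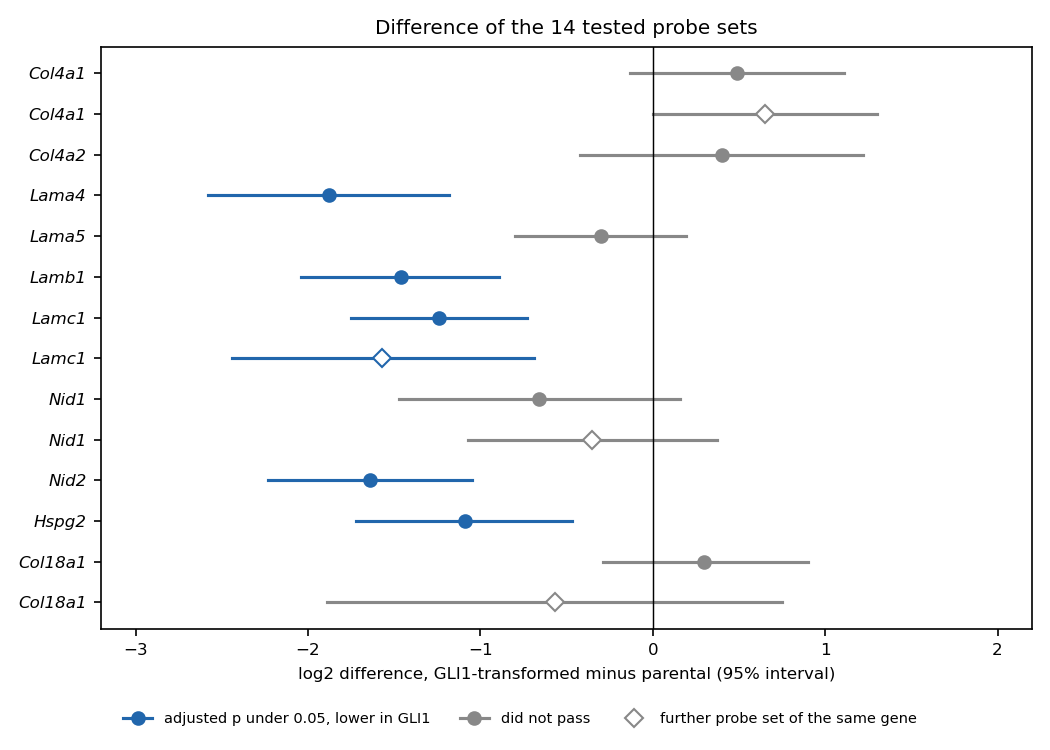
Log2 difference, GLI1-transformed minus parental, of the 14 tested probe sets (points) with the 95% interval (lines), where open diamonds mark further probe sets of a gene. The 6 blue intervals, of Lama4, Lamb1, Lamc1, Nid2 and Hspg2, lie wholly below 0, and both Col4a1 probe sets and Col4a2 have their point above 0 without passing.

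Col4a1 and Col4a2 encode the alpha1 and alpha2 chains, which assemble in a 2 to 1 ratio into the collagen IV trimer. The genes are neighbours on rat chromosome 16 and are read away from each other. In RefSeq (GRCr8) their starts are 77 bases apart, so that the windows from 250 bases before to 50 bases after each start share 176 bases. Both windows are shown because 1 stretch of DNA lies before or across both starts. The shared stretch is in capitals and runs on opposite strands in the 2 lines, at chr16:84885347-84885646 (plus strand) for Col4a1 and chr16:84885471-84885770 (minus strand) for Col4a2.
Col4a1: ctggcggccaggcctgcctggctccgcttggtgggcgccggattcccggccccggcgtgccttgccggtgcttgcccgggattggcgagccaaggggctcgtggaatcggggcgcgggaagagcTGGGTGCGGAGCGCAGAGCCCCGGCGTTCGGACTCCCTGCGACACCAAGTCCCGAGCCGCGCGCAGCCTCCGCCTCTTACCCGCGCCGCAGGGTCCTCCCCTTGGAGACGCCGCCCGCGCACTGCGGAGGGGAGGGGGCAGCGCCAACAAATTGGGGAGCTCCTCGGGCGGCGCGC
Col4a2: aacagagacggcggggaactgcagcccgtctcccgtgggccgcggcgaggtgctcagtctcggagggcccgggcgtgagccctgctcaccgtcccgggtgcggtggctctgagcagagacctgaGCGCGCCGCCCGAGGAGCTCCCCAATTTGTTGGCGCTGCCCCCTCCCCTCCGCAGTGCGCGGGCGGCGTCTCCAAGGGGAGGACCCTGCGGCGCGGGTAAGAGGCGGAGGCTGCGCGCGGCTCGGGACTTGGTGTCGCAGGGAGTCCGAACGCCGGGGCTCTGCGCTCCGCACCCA

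Promoter windows were found for 9 of the 10 genes. Their GC content ran from 55.0% in Lama4 to 75.0% in Col4a1, beside a median of 51.7% over 33469 promoters of the same length. On either strand, the GLI motif GACCACCCA was in 0 of the 9 windows, and 0.385% of all promoters held it. The GC box GGGCGG was in 8 of the 9 (all but Lama4), beside 33.1% of all promoters. The CCAAT box was in 3 (Col4a1, Col4a2 and Nid1), beside 37.5%, and 1 such match lies in the stretch that Col4a1 and Col4a2 share. The letters TATAAA were in Lama4 only, beside 14.2% of all promoters. A match is a description of letters and not a binding site, and no match says only that these letters are not in this window.

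Col4a1 signal was 25212 (unnamed clone), 14549.6 (clone I), 16091 and 27184 (clone II replicates 1 and 2), against 12896 and 15726 in parental cells. Of the GLI1 arrays, 3 were above both parental arrays and clone I lay between them. The log2 difference of Col4a1 was 0.49 (SE 0.27, 95% interval -0.13 to 1.11, adjusted p = 0.278). Its further probe set had 23970.3, 13439, 12722 and 23234 in GLI1 cells in the same order, against 10672 and 11794 in parental cells. There the groups did not overlap, and the difference of 0.65 did not pass (SE 0.29, adjusted p = 0.176). Col4a2 had 8064 (unnamed clone), 3740.5 (clone I), 3463 and 6770 (clone II replicates 1 and 2), against 3286 and 4656 in parental cells. The unnamed clone and clone II replicate 2 were above both parental arrays, and the other 2 GLI1 arrays lay between them. The log2 difference of Col4a2 was 0.40 (SE 0.36, 95% interval -0.42 to 1.22, adjusted p = 0.518).

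Among the GLI1 arrays, Col4a1 and Col4a2 were highest in the unnamed clone and in clone II replicate 2. The same arrays were the highest for Lama5, Lamb1, Lamc1, Nid1, Hspg2 and Col18a1, but not for Lama4 and Nid2. Relative to the parental mean, Col4a1 stood at 0.82, 0.03, 0.18 and 0.93 log2 units on the GLI1 arrays (unnamed clone, clone I, clone II replicates 1 and 2) and Col4a2 at 1.04, -0.06, -0.18 and 0.79. The gap between them kept within -0.22 to 0.35 on those arrays, and was 0.11 and -0.11 on the parental ones. For Col4a1 minus Lamb1, each relative to its parental mean, it was 1.76, 1.92, 1.87 and 2.28 on the GLI1 arrays, against -0.21 and 0.21 on the parental arrays. For Col4a1 minus Lamc1 it was 1.96, 1.53, 1.72 and 1.72, against -0.13 and 0.13. The means of these gaps correspond to a Col4a1 to Lamb1 signal ratio 3.88 times, and a Col4a1 to Lamc1 ratio 3.32 times, that of parental cells. Lamb1 minus Lamc1 stayed between -0.56 and 0.20 on the GLI1 arrays. Over those arrays the SD of the gap was 0.24 for Col4a1 minus Col4a2, 0.23 for Col4a1 minus Lamb1 and 0.18 for Col4a1 minus Lamc1. The gap of the collagen IV pair was thus no steadier than the gaps of Col4a1 to these laminin genes. Nid2 minus Nid1 averaged -0.98 ± 0.39 in GLI1 cells and 0.00 ± 0.20 in parental cells, and Lama4 minus Lama5 averaged -1.58 ± 0.51 and 0.00 ± 0.18 (SD, n = 4 and n = 2). These pairs were chosen after the values were seen and are given without a test.

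**Figure D3:**
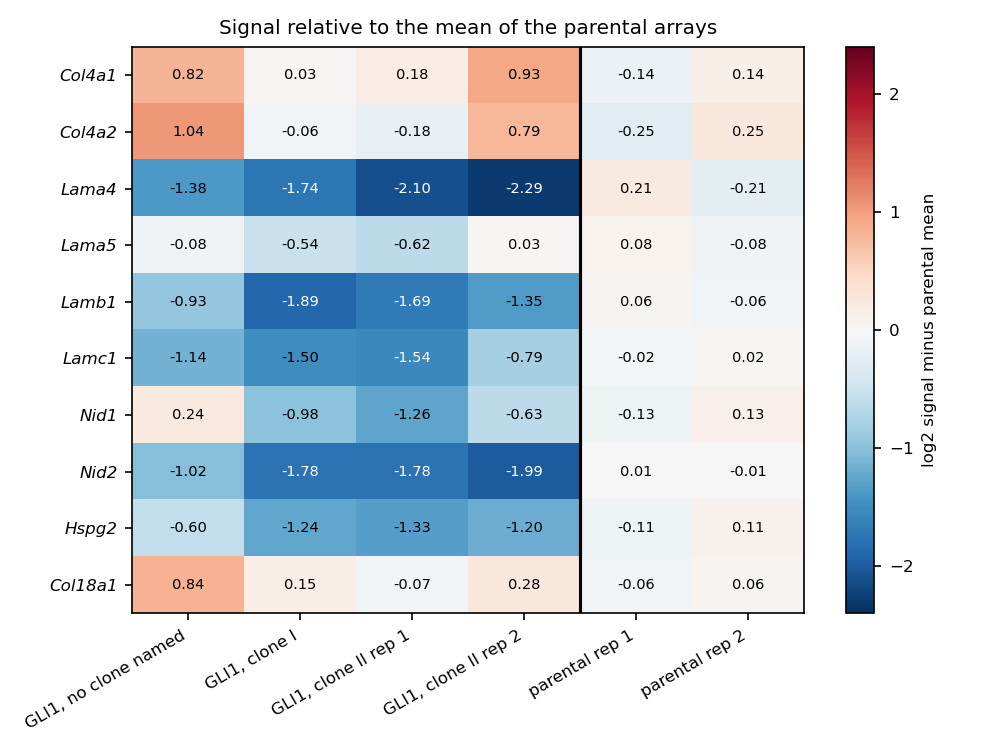
Log2 signal of each gene (rows, probe set of highest mean) minus the mean of the parental arrays, by array (columns), with the value in each cell. Lama4, Lamb1, Lamc1, Nid2 and Hspg2 are below 0 on all 4 GLI1 arrays, from -0.60 to -2.29, and Col4a1 is above 0 on all 4, from 0.03 to 0.93.

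Among the transformed lines the 10 genes shifted partly together. For 7 of the 10 genes the unnamed clone was the highest of the 4 GLI1 arrays, for the other 3 clone II replicate 2 was, and clone II replicate 1 was the lowest for 6. The median signal of all probe sets was 691 in the unnamed clone and 568 to 580 on the other GLI1 arrays, and clone II replicate 1 had the highest GAPDH ratio. Their part in this order was not tested. Setting clone II against the remaining GLI1 arrays, 0 of the 14 probe sets passed and 2 had an unadjusted p under 0.05, while 0.129% of all tested probe sets were called (limma, 2 against 2 arrays). The log2 differences, clone II minus other GLI1 arrays, ran from -1.38 to 0.15. Those 2 were the dimmer probe sets of Col18a1 (-1.38, SE 0.51, adjusted p = 0.492) and Nid1 (-0.69, SE 0.30, adjusted p = 0.573). Among the genes' brightest probe sets the lowest was that of Lama4 (-0.63, SE 0.30, adjusted p = 0.608), and Lamb1 and Lamc1 differed by -0.11 and 0.15.

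Other basement membrane genes were read from a list of 30 genes, of which 24 had a probe set named and 14 were tested. Among these 1 gene rose, 6 fell and 7 missed the threshold, with a median log2 difference of -0.44. Of all named genes tested 7.80% rose and 7.75% fell, and whether the list differs from them was not tested. Col4a5, which encodes the alpha5 chain of collagen IV, had 14667, 9491, 14219.8 and 14820.3 in GLI1 cells (unnamed clone, clone I, clone II replicates 1 and 2), against 41672 and 42266 in parental cells. This chain gene, unlike Col4a1 and Col4a2, had every GLI1 array below both parental arrays, and it fell (log2 difference -1.68, SE 0.21, adjusted p = 0.00159). Col4a6, a further collagen IV chain gene, had 3054, 1864, 3468 and 4091 in GLI1 cells, against 7785 and 4718 in parental cells. Its groups did not overlap either, but the difference of -1.02 did not pass (SE 0.33, adjusted p = 0.0794, limma). Hmcn1, the gene of the giant matrix protein hemicentin-1, fell by 2.85 (SE 0.43, adjusted p = 0.00366).

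The SMOC genes encode calcium-binding proteins of basement membranes related to SPARC, and they went opposite ways. Smoc2 had 5395, 2832, 3719 and 1569.7 in GLI1 cells, against 254 and 137 in parental cells, and rose (log2 difference 4.04, SE 0.47, adjusted p = 0.00112). Both parental signals of Smoc2 lie below the filter level of 322, so the probe set was tested through its GLI1 signals and the size of the difference rests on dim values. Further probe sets of Smoc2 lay below the filter, with mean log2 signals of 5.43 and 5.44 in GLI1 cells, against 4.72 and 5.59 in parental cells, so the rise rests on 1 probe set. Smoc1 fell by 3.13 (SE 0.66, adjusted p = 0.0165). The others that fell were Lamb2, Pxdn, which encodes the peroxidase that crosslinks collagen IV, and Sparc. Agrn, the agrin gene, gave a log2 difference of 0.38 (SE 0.16, adjusted p = 0.159). Laminin chain genes Lama1 and Lamc3 gave 0.24 (adjusted p = 0.79) and 0.46 (adjusted p = 0.632), and Lama2, Lama3 and Lamb3 lay below the filter. Leaving out parental replicate 1 left 1 risen and 1 fallen gene in this list, and leaving out parental replicate 2 left 1 and 2.

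Of 16 tested receptor genes for basement membrane proteins, 2 rose, 9 fell and 5 did not pass, beside 7.80% risen and 7.75% fallen of all named genes, and the list median was -0.81. Itga1, the alpha subunit of a collagen-binding integrin that prefers collagen IV, had 1499, 847, 650.2 and 722 in GLI1 cells, against 24206 and 21892 in parental cells. It fell 26.2-fold (log2 -4.71, SE 0.33, adjusted p = 9.06e-05), a larger change than that of any of the 10 genes. The heparan sulphate syndecan gene Sdc2 fell by 2.39 (SE 0.26, adjusted p = 0.000761) and Itgb1, the beta1 subunit of most laminin and collagen receptors, fell by 0.85 (SE 0.15, adjusted p = 0.0081). Bcam, the gene of a receptor for laminin alpha5, rose by 1.25 (SE 0.27, adjusted p = 0.0176), and the integrin alpha6 gene Itga6 rose by 0.92 (SE 0.21, adjusted p = 0.0228). Among the 9 that fell were also the integrin alpha3 gene Itga3 (-1.08, adjusted p = 0.0339) and Cd151 (-0.73, adjusted p = 0.0296). The other 3 tested probe sets of Itga6 did not pass, and 1 of them was of opposite sign (-0.55, adjusted p = 0.386). With every array centred on its median the fallen receptor genes numbered 5, and without parental replicate 1 or without parental replicate 2 they numbered 2.

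Of 16 tested genes for collagen processing and secretion, 1 rose, 4 fell and 11 did not pass, with a median of -0.45 (of all named genes 7.80% rose and 7.75% fell). Plod1, a lysyl hydroxylase that modifies collagen chains before secretion, had 50140.3, 35722, 24538 and 28251 in GLI1 cells, against 8675 and 8421 in parental cells, and rose 3.91-fold (log2 1.97, SE 0.27, adjusted p = 0.00225). P4ha3, a catalytic subunit of prolyl 4-hydroxylase, fell (log2 difference -3.91, SE 0.35, adjusted p = 0.000297), the COPII coat gene Sec24d fell by 1.34 (SE 0.23, adjusted p = 0.00645) and the prolyl 3-hydroxylase gene P3h1 fell by 1.03 (SE 0.21, adjusted p = 0.0136). The collagen chaperone gene Serpinh1 gave -0.58 (SE 0.28, adjusted p = 0.207), and Mia3, which encodes a receptor for collagen export from the endoplasmic reticulum, gave 0.14 (SE 0.14, adjusted p = 0.567). Without parental replicate 1 the fallen genes numbered 1, and without parental replicate 2 they numbered 2.

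Fibrillar collagen genes, which build the interstitial matrix, are set beside the 10 genes for scale. Of 8 such genes on the array 5 were tested, and all 5 fell, beside 7.75% fallen of all named genes. Their median was -5.51. The other 3, Col5a3, Col11a1 and Col2a1, lay below the filter by their mean over all arrays. Of these, Col5a3 had 1016 and 737.5 in parental cells, against 183, 24.5, 69.5 and 23.1 in GLI1 cells. With no filter, 6 genes of this list fell. The log2 difference was -7.03 for Col3a1 (SE 0.46, adjusted p = 6.99e-05), -5.73 for Col1a2 (SE 0.27, adjusted p = 1.36e-05), -5.51 for Col1a1 (SE 0.62, adjusted p = 0.000919) and -2.19 for Col5a2 (SE 0.21, adjusted p = 0.000472). The lowest log2 difference among the 10 basement membrane genes, that of Lama4, was -1.88. Whether the lists differ was not tested.

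**Figure D4:**
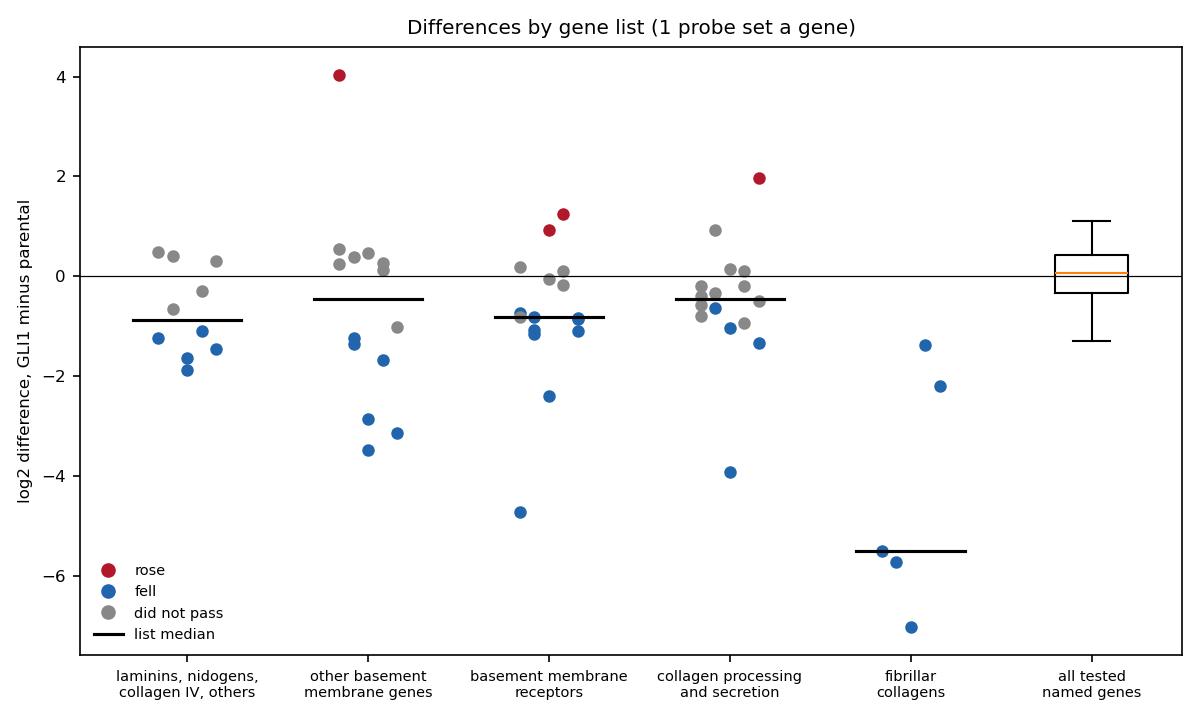
Log2 difference, GLI1-transformed minus parental, of the tested genes of 5 lists (points, coloured by call, with the list median as a line), and of 10240 named genes (box with quartiles, whiskers at the 5th and 95th percentiles). List medians are -0.88, -0.44, -0.81, -0.45 and -5.51 from left to right, and Smoc2 is the point above 4.

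RK3E is described as an epithelial line, and markers of kidney epithelium and of other cells were measured on the same arrays. Of 9 kidney epithelial markers 7 lay below the filter, among them Cdh1, Cdh16, Pax2 and Pax8, and the tested 2, Krt8 and Epcam, did not pass. The summed signal of this list was 7988 in the unnamed clone, 9206 in clone I, and 2207 and 1648 in clone II, against 2419 and 2669 in parental cells. Krt8, the largest part of that sum in the unnamed clone and clone I, was higher on those arrays than in clone II. Its signals were 4284, 6092, 539 and 599 on the GLI1 arrays, listed as before, against 1085 and 1355 in parental cells. Of 9 endothelial markers on the array 7 lay below the filter and 0 passed, with summed signals of 1588 to 2945 in GLI1 cells and 2130 to 2882 in parental cells. The immune list had 0 passing genes and summed signals of 1004 to 1424 and 1086 to 1519. Of the fibroblast markers Dcn and Lum lay below the filter, and Pdgfra did not pass (-0.06, adjusted p = 0.95). The other 3, Col1a1, Col3a1 and Ogn, fell, and the summed signal was 3897 to 5712 in GLI1 cells and 113428 to 126965 in parental cells. Most of the parental sum came from Col3a1 (70958 and 62237) and Col1a1 (37844.5 and 35384.5), which are also in the fibrillar collagen list. Further tested probe sets of Ogn gave -4.37 and -4.63 and did not pass (adjusted p = 0.067 and 0.131). Ogn (-4.22, adjusted p = 0.0456, limma) lost its call with the replicate number as a block (adjusted p = 0.0586). It also lost it with no filter (adjusted p = 0.056) and without the intensity trend of the fit (adjusted p = 0.0823). The same held without the unnamed clone, clone I, either parental array, or both arrays of highest GAPDH ratio. In the mural list the smooth muscle actin gene Acta2 fell by 3.35 (adjusted p = 0.0021), while Des (-0.10), Myh11 (-0.30) and Notch3 (0.52) did not pass, and the list median was -0.20. In the podocyte list the actin-associated gene Synpo fell by 1.07 (adjusted p = 0.0124), Podxl (0.57) and Wt1 (-0.24) did not pass, and Nphs1 lay below the filter. A further tested probe set of Synpo, dimmer than the first, gave -0.18 and did not pass (adjusted p = 0.819). The summed signals of the mural list were 2618 to 3985 in GLI1 cells and 8104 to 15560.5 in parental cells. Most of the parental mural sum came from Acta2 (5680 and 12600). The podocyte sums were 5022 to 7625 in GLI1 cells and 9387 to 10588 in parental cells. Most of the parental podocyte sum came from Synpo (8588 and 7714). By their brightest probe sets, the marker genes Col1a1, Col3a1, Ogn, Acta2 and Synpo were lower in the same cells as Lama4, Lamb1, Lamc1, Nid2 and Hspg2. The part of these markers in those results was not tested.

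Calls depended on both parental arrays. Hspg2 lost its call without any 1 array other than the unnamed clone. Without parental replicate 1, 0 of the member probe sets passed, and without parental replicate 2 only 1 did, that of Lama4. The log2 differences were then -1.67 and -2.09 for Lama4, -1.40 and -1.53 for Lamb1, -1.26 and -1.22 for Lamc1, -1.63 and -1.65 for Nid2, and -1.20 and -0.99 for Hspg2. With 1 parental array the fit takes the spread from the GLI1 arrays and assumes that the lone array varies like them. Without clone II replicate 1 and parental replicate 1, which had the highest GAPDH ratios of their groups, 0 passed, and the log2 differences of the 5 genes that fell ran from -1.60 to -1.12. In these 3 fits the calls among all probe sets also dropped, to 244 risen and 281 fallen, 290 and 417, and 158 and 168, where there were 1087 and 1351 with all arrays.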

How the data were processed

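Total RNA of 6 cell samples was hybridised to Affymetrix rat arrays as biotin-labelled cRNA, per the labels' protocols. The authors deposited a linear intensity for each of 31099 probe sets on each array, computed with MAS5, per the submitters' processing notes, with no version given in the sources used here. MAS5 scales each array to a common mean, and detection calls were not used here. Signals under 1 were set to 1 and log2 was taken. After 57 control probe sets were left out, testing was limited to the 18625 of 31042 probe sets whose mean log2 signal exceeded 8.33, the 40th percentile. Groups were compared with limma 3.58.1 (R 4.3.3; eBayes with an intensity trend, two-sided, Benjamini-Hochberg over all tested probe sets, threshold 0.05), as 4 GLI1 against 2 parental arrays, and in a 3-level model for clone II against the other GLI1 arrays. "Rose", "fell" and "passed" mean an adjusted p under 0.05. Procedures were tested on simulated data. No arrays were repeats of each other (at most 16 identical values in any pair).

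Gene names came from the platform's annotation and a RefSeq gene list (GRCr8, names only), with 0 symbols changed. Promoter sequences are RefSeq's (GRCr8), searched for exact letters on both strands. Where a gene had several probe sets, that of highest mean stood for it. Named were all members, the called genes of smallest adjusted p in each list (up to 4) and up to 2 of its minority direction, up to 4 called markers per list, and Gli1. Other genes given with a value were added after their values were seen. The members, lists and alternatives were chosen with earlier results of these data known.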

Additional observations from a re-analysis of the deposited data

Results flagged for a closer look

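Ogn, a fibroblast marker that encodes the small matrix proteoglycan osteoglycin, was higher in clone II than on the remaining GLI1 arrays (log2 difference 3.98, SE 0.24, adjusted p = 0.00177, limma, 2 against 2 arrays). Its mean log2 signal was 11.70 in clone II, 7.73 on the other GLI1 arrays and 13.93 in parental cells. The signals on those other GLI1 arrays were 210.3 and 213, below the filter level of 322, so the size of the difference rests on dim values. Of the 10 basement membrane genes, 0 passed this test, and none of their 17 probe sets had a GLI1 array standing apart from the other 3 by Dixon's test.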

How the results depend on the processing

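In 154 recomputations of the 10 genes' log2 differences, 134 kept their sign and side of the threshold and 18 lost a call. A further 1 gained a call (Nid1) and 1 changed sign (Col18a1, -0.57 in its dimmer probe set). Only the 5 genes that fell had a call to lose, so all 18 losses were theirs. The 134 also count the 5 genes that did not pass. With 1 array left out the log2 difference ran from -2.09 to -1.67 for Lama4, -1.64 to -1.32 for Lamb1, -1.39 to -1.14 for Lamc1, -1.85 to -1.52 for Nid2, -1.26 to -0.99 for Hspg2 and -0.96 to -0.46 for Nid1. The fallen member probe sets then numbered 0 to 7, beside 6 with all arrays. Fallen genes were 1 to 6 among other basement membrane genes, 1 to 5 in collagen processing and 2 to 9 among receptors, whose risen genes were 0 to 2. Hspg2 lost its call without any 1 array other than the unnamed clone, and with clone II averaged into 1 replicate (-1.04, adjusted p = 0.0524).

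Without both arrays of highest GAPDH ratio the log2 differences were -1.60 for Lama4, -1.33 for Lamb1, -1.16 for Lamc1, -1.58 for Nid2 and -1.12 for Hspg2 (adjusted p = 0.154, 0.151, 0.141, 0.117 and 0.249), and the counts were 0 fallen member probe sets, 1 fallen gene each among other basement membrane and collagen processing genes, and 0 risen and 2 fallen receptors. Only 1 parental array enters that fit, and it is assumed to vary like the GLI1 arrays. Centring each array on its median gave 5 fallen receptors, and the median log2 difference over tested probe sets was then 0.165, beside 0.005. Without the intensity trend, or with a 2-fold minimum, the receptors gave 1 risen and 5 fallen. The receptor gene Itga6 had a probe set of opposite sign (-0.55). With the replicate number as a block, 0 member probe sets rose and 6 fell (1190 and 1437 of all probe sets). The labels do not say that equal numbers mark a shared culture, and the difference of replicate 1 minus 2 correlated at 0.254 between the groups across probe sets. Clone II set against the remaining GLI1 arrays gave 0 member calls under the other normalizations, filters and added constant, without the trend and with any 1 array left out. That comparison was not refitted with the block, with clone II averaged, with the 2-fold minimum or without the GAPDH arrays. Dim signals limit the 3 untested probe sets.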

Other observations

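The 3 member probe sets below the filter were a further one of Lama4 (signals of 128 to 312 in GLI1 cells and 250 and 335 in parental cells) and 2 of Lama5 (110 to 240 and 9 to 57 in GLI1 cells, against 14.2 to 443 and 29.5 to 33.9 in parental cells). The array also carries probe sets annotated to Nid2-ps16, a symbol that shares its stem with Nid2 and is no member. The brightest of them had 4192 (unnamed clone), 3117 (clone I), 1233 and 1185 (clone II), against 4584 and 4276 in parental cells. It did not pass between GLI1 and parental cells (log2 -1.08, SE 0.50, adjusted p = 0.191) or for clone II against the remaining GLI1 arrays (-1.58, adjusted p = 0.0748). Whether the Nid2 probe set also binds these transcripts was not tested.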
